A study of Mus musculus with 4 samples.

Results

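Open chromatin at the genes of 5 transcription factors of resting Treg cells, Satb1, Bach2, Tcf7, Lef1 and Foxp1, was described in LN Treg cells of WT and Il2ramut/mut mice. Every called ATAC-seq peak that overlapped the body of one of these genes, or the 50 kb on either side of it, was taken, and peaks that overlapped by at least 1 bp were merged over the libraries. This gave 273 regions out of 272233 in the genome, of which 24 lay at Satb1, 74 at Bach2, 38 at Tcf7, 43 at Lef1 and 94 at Foxp1. The regions were taken by the position of the genes, not by their values, and the genes were chosen with earlier results of these data known.

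The comparison of the genotypes asked how weak IL-2 signals alter the chromatin of Treg cells. LN Treg cells were sorted as RFP+ cells from female C57BL/6 mice of 6 to 8 weeks, either WT or Il2ramut/mut, which carry a point mutation in the gene of the IL-2 receptor alpha chain (CD25) and whose Treg cells receive less IL-2 signal. Both groups carried the Foxp3-RFP reporter, were unstimulated, and had 2 mice, 1 library each, made from 50000 cells. The mutation is in the germ line, so every cell of the mutant animals carries it, and the lists of peaks cannot show it.

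SATB1 is a chromatin organizer of T cells that tethers distant stretches of DNA. BACH2 is a repressor of the basic leucine zipper class that competes with AP-1 factors for similar DNA words and holds back effector differentiation. TCF-1, the product of Tcf7, and LEF-1 are related HMG-box factors that bind the same kind of word and maintain T cell identity and memory-like, lymphoid states. FOXP1 is a forkhead factor known for keeping naive T cells quiescent, and it also acts beside Foxp3 in Treg cells.

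ATAC-seq uses a transposase that inserts adapters into accessible DNA. The list of each library gives, for every peak, how far its summit stands above background (the fold enrichment) and the −log10 p of that excess, and a peak is described below by these values and by the percentile of its −log10 p among all peaks of its library. The 4 lists hold between 112569 and 142732 peaks, and the read totals are unknown. Summit heights could be read back as whole reads, from a minimum of 5 or 6 up, so low peaks move in steps of 1 read and many share a percentile. The labelled cell type was checked at promoters (within 1 kb of a transcription start site, TSS). All 7 markers of CD4 T and Treg cells, Foxp3 and Il2ra among them, had a called peak in all 4 libraries, at percentiles from 47.8 to 97.4. Of the other lists, 0 of 4 B cell markers had a peak, 1 of 4 myeloid markers (Cd14) and 1 of 3 NK markers (Eomes) had one in 2 libraries, and Cd8b1, but not Cd8a, had one in all 4 libraries, at percentiles from 66.2 to 84.5. Cells were assayed in bulk, so that fewer cells with an open site and less opening in each cell cannot be told apart.

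The genomic sequence at the summits shows what the regions that differed most between the genotypes hold (GRCm38, RefSeq, plus strand, 151 bases with the summit in the middle). The next 4 are the highest-ranked regions at Satb1, Bach2, Lef1 and Foxp1 that had a peak in both WT libraries and in neither mutant library. Capitals mark the words searched, on either strand, which were CTTTGA or CTTTGT for TCF/LEF, CCGGAA or CAGGAA for ETS, TGTGGT for RUNX, GTAAACA for forkhead, TGANTCA for AP-1/BACH, TTCNNNGAA for STAT and AGATAA for GATA.
Satb1 region 22, chr17:51763729-51763879: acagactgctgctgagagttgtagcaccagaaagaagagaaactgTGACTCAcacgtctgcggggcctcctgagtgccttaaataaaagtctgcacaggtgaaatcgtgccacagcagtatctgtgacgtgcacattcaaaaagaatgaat
Bach2 region 32, chr4:32341377-32341527: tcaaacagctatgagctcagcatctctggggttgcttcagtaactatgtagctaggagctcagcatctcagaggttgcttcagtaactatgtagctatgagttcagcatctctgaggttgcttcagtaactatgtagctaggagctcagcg
Lef1 region 40, chr3:131214884-131215034: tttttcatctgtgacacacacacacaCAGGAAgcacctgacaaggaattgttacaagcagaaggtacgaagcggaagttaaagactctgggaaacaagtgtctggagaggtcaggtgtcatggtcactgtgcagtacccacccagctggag
Foxp1 region 24, chr6:99395808-99395958: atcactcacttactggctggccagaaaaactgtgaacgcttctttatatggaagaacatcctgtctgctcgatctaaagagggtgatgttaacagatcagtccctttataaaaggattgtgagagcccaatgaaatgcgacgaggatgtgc
The Satb1 sequence holds an AP-1/BACH word and the Lef1 sequence an ETS word, whereas the others hold none of the words searched. The Bach2 sequence is built of repeats, with a stretch of 25 bases that occurs 3 times.

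The following 5 had a peak in all 4 libraries and the largest separation of the genotypes at their gene.
Satb1 region 23, chr17:51762604-51762754: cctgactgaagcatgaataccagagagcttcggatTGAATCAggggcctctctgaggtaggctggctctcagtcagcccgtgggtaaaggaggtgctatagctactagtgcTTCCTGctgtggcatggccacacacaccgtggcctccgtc
Bach2 region 47, chr4:32393361-32393511: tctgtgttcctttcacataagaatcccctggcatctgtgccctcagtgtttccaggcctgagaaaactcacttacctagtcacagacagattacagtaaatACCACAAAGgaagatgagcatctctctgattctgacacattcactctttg
Tcf7 region 34, chr11:52241067-52241217: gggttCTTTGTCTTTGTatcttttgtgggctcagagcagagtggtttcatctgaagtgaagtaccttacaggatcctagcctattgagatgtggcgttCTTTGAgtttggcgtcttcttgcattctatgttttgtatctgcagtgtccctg
Lef1 region 18, chr3:131139628-131139778: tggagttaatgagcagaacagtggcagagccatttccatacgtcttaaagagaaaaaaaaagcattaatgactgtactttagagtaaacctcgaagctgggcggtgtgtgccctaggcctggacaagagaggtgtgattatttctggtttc
Foxp1 region 15, chr6:99428958-99429108: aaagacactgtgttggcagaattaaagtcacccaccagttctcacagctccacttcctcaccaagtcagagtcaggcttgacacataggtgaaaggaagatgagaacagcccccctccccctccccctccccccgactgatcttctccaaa
All were higher in WT except Foxp1 region 15, which was higher in the mutant. Satb1 region 23 holds an AP-1/BACH and an ETS word. Bach2 region 47 holds a RUNX and a TCF/LEF word that overlap, so that the capitals run together, and Tcf7 region 34 holds 3 TCF/LEF words, of which a pair adjoin. No word lies in the sequences of Lef1 region 18 and Foxp1 region 15. These matches are descriptions of the letters and say nothing of binding.

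WT Treg cells had more called peaks than Il2ramut/mut Treg cells at each of the 5 genes on average. At Satb1, 18 and 23 peaks were called in WT replicates 1 and 2, against 12 and 10 in Il2ramut/mut replicates 1 and 2. At Bach2 the numbers were 56 and 67 in WT and 47 and 50 in the mutant. The genotypes thus did not overlap at either gene, with a ratio of the means of 1.86 at Satb1 and 1.27 at Bach2.

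At Tcf7, both WT libraries had 32 peaks, and the mutant libraries had 22 and 24. Lef1 had 22 and 39 peaks in WT and 24 and 22 in the mutant. Foxp1, the longest of the genes, had 67 and 84 in WT and 49 and 67 in the mutant. By number of peaks, the genotypes were separate at Tcf7, overlapped at Lef1, where WT replicate 2 alone was high, and met at Foxp1. Per 10000 called peaks of the library, Foxp1 had 5.95 and 6.63 in WT and 3.99 and 4.69 in the mutant. The genotypes did not meet on that scale. How many of all genes have separate genotypes was not counted. The separation is thus not shown to be particular to the members.

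**Figure D1:**
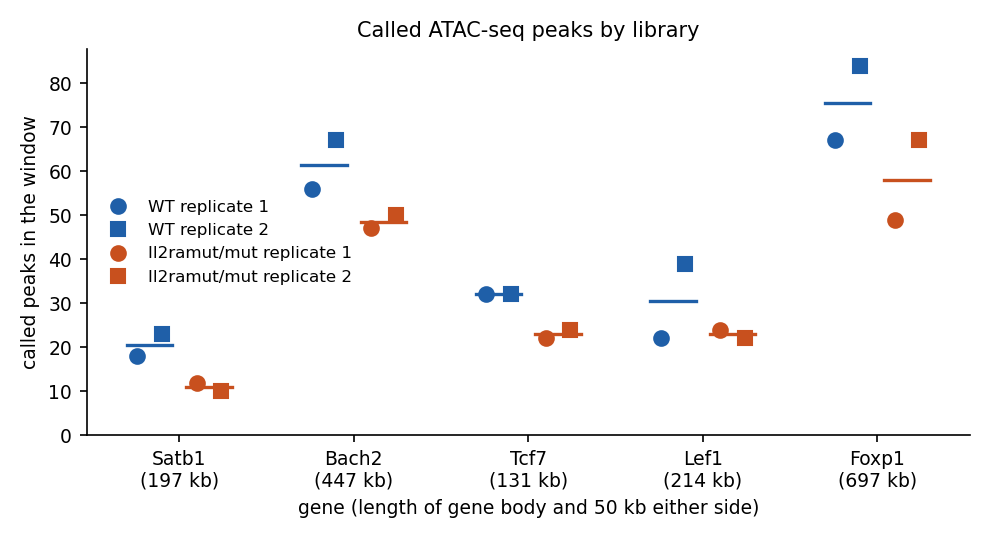
Number of called peaks (y axis) in the window of each gene (x axis, with the length of the window in kb). Points are libraries and lines are means of the 2 libraries of a genotype. At Satb1, Bach2 and Tcf7 both WT libraries (blue) lie above both mutant libraries (orange), at Lef1 only WT replicate 2 does, and at Foxp1 WT replicate 1 equals mutant replicate 2 at 67.

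Together the windows held 195 and 245 peaks in WT and 154 and 173 in the mutant. Per 10000 called peaks of the library these were 17.3 and 19.3 in WT and 12.5 and 12.1 in the mutant. Across genes, the shift was not limited to the members. Among 4848 protein-coding genes with a mean of at least 10 peaks, the median log2 difference of the share of peaks, WT minus mutant, was 0.20, and the members are read against this. Satb1 differed by 1.01 (SE 0.19), or 0.81 above the median, and ranked 49 of the genes. Tcf7 differed by 0.62 (SE 0.18), Foxp1 by 0.53 (SE 0.20), Lef1 by 0.49 (SE 0.26) and Bach2 by 0.48 (SE 0.19), which is 0.28 to 0.42 above the median.

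With limma and Benjamini-Hochberg adjustment over all these genes, a comparison added after the values had been seen, 0 of the 5 passed an adjusted p of 0.05, at a background of 0.825% of genes called (19 higher in WT and 21 in the mutant). The adjusted p was 0.076 for Satb1, 0.16 for Tcf7, 0.22 for Foxp1, 0.23 for Bach2 and 0.32 for Lef1, and the unadjusted p was under 0.05 for all of them except Lef1, as it was for 717 genes higher in WT (14.8%) and 274 higher in the mutant (5.65%) of the 4848. Leaving out a library leaves 1 library in its genotype, so only the differences of those fits are given. Satb1 differed by 1.1 without WT replicate 1 and by 0.93 without WT replicate 2, against 1.01 with every library. It differed by 1.25 without Il2ramut/mut replicate 1 and by 0.78 without Il2ramut/mut replicate 2. Lef1 depended on WT replicate 2, without which its difference was 0.17 against a median of 0.18. With 2 libraries against 2, an exact permutation test of a single gene cannot go below 0.333.

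Per length, Tcf7 was the most densely covered of the genes, with 24.5 peaks per 100 kb in both WT libraries and 16.8 and 18.4 in the mutant libraries, above at least 96.4% of genes in each library. Bach2 had 12.5 and 15.0 in WT and 10.5 and 11.2 in the mutant. Lef1 had 10.3 and 18.2 in WT and 11.2 and 10.3 in the mutant. Foxp1 had 9.61 and 12 in WT and 7.03 and 9.61 in the mutant. Satb1 had 9.13 and 11.7 in WT and 6.09 and 5.07 in the mutant, so it stood above 84.3% and 87.7% of genes in the WT libraries and above 69.9% and 49.0% in the mutant libraries. Tcf7 stood clear of the other members in every library. In WT the ranges of Lef1, Foxp1 and Satb1 overlapped one another, and that of Bach2 overlapped that of Lef1. In the mutant the ranges of Bach2 and Lef1 overlapped, Foxp1 came next, and Satb1 was the lowest with no overlap. Genes with the most similar densities over the 4 libraries were P4ha2, Hoxa4 and Ankrd22 for Satb1 (distance on the log2 scale from 0.25 to 0.29), Cdk19, Eif2d and Cd47 for Bach2 (0.08 to 0.12), H2-Oa, Pdgfc and Gm8122 for Tcf7 (0.16 to 0.19), Gtf2i and Pcif1 for Lef1 (0.28 and 0.29) and Rpl32, Cenpt and Zfp385c for Foxp1 (0.07 to 0.11).

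The peaks missing from the mutant libraries were counted next. Of the 273 regions, 27 (9.89%) had a peak in both WT libraries and in neither mutant library, at a background of 2.70% of all regions. The reverse pattern was found at 4 regions (1.47%), at a background of 3.56%. Regions called in a single library cannot show either pattern, and they were 31.9% of the regions here against 61.3% of all regions. The shares are therefore not on an equal footing. Satb1 had 6 regions of the WT pattern and 1 of the mutant pattern, Bach2 8 and 2, Tcf7 2 and 0, Lef1 2 and 0, and Foxp1 9 and 1. As a share of its regions Satb1 stood highest, at 25% against 10.8% at Bach2, 9.57% at Foxp1, 5.26% at Tcf7 and 4.65% at Lef1.

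**Figure D2:**
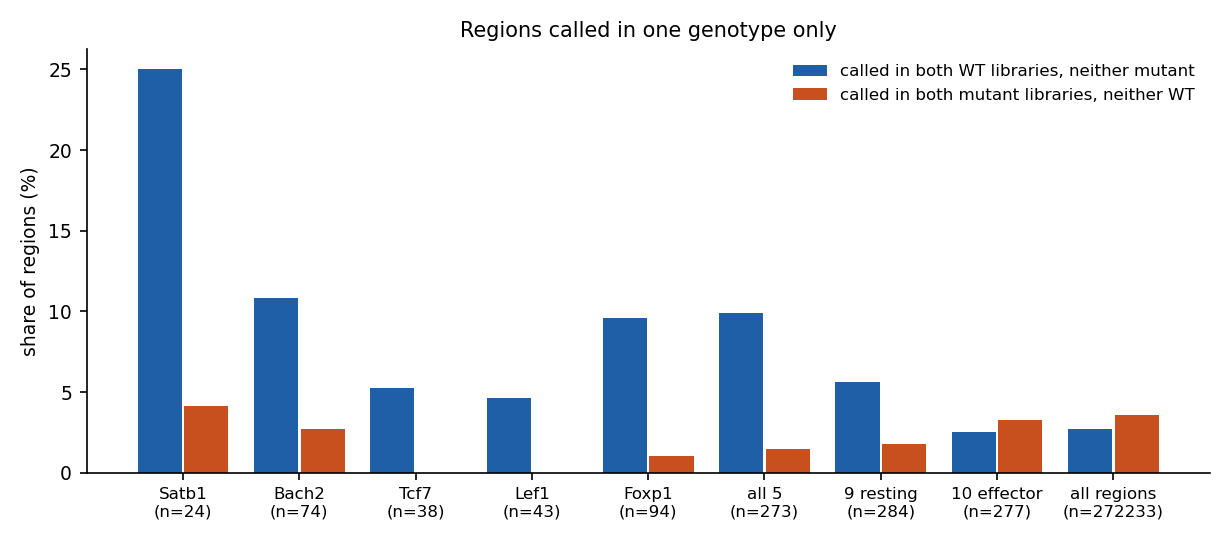
Share of regions (y axis, %) called in both libraries of a genotype and in neither library of the other, for each gene, the 5 genes together, 9 other genes of resting Treg cells, 10 genes of effector Treg cells and all regions of the genome (x axis, with the number of regions). The WT share (blue) is 9.89% at the 5 genes and 2.70% over all regions, and the mutant share (orange) is 1.47% and 3.56%.

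WT replicate 2 contributed most to the regions found in a single library. Of 87 such regions at the 5 genes, 59 were in WT replicate 2 and 18 in WT replicate 1, against 3 in Il2ramut/mut replicate 1 and 7 in Il2ramut/mut replicate 2. These are 21.6%, 6.59%, 1.1% and 2.56% of the regions, where 15.0%, 12.4%, 14.5% and 19.4% of all regions were found in the same library alone. Without WT replicate 2, regions called in the remaining WT library and in neither mutant library were 49 of 231 (21.2%), at a background of 18.0% over all regions, whereas without WT replicate 1 they were 86 of 256 (33.6%), at a background of 20.4%. By this looser pattern, the excess over the background was larger with WT replicate 2 than with WT replicate 1. A single WT library had to meet the condition there, so these shares cannot be set against those of the pattern in both WT libraries. When the same number of top-ranked peaks was taken from every library, 28 regions had the WT pattern (10.6%, background 3.16%) and 5 the mutant pattern (1.89%, background 2.97%).

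Most of the 27 regions were weak peaks inside introns. Their reads at the summit ranged from 6 to 18 in either WT library, with a median of 8 and 11, and the lower of the WT percentiles had a median of 47.8. In 7 of them it was above 70. Introns held 20 of the 27 (74.1%) and 4 were intergenic, whereas 45.1% of all regions with this pattern were intronic. Of the 273 regions, 70% were intronic, against 42.6% of all regions.

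At Satb1 the 6 WT-only regions lay 24.2 kb upstream of the gene, near its 5′ end, in introns 5, 6 and 9 of the longest transcript and directly past the 3′ end. Region 22 (chr17:51763279-51763993), in intron 9, had summits of 13 reads in WT replicate 1 and 18 in WT replicate 2, at percentiles 80.3 and 83.0. Region 6 (chr17:51857528-51858006), upstream, held 13 and 11 reads, and region 19 (chr17:51800241-51800550), in intron 5, held 10 and 17. None of the 6 had a called peak in a mutant library. The opposite pattern was seen 48.3 kb upstream (chr17:51881578-51881963), within 1 kb of the TSS of AC161258.2, with 14 and 11 reads in the mutant libraries.

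The WT-only region nearest to the 5′ end of Satb1, region 8 (chr17:51833832-51834367), held 8 and 14 reads. It adjoins region 9 (chr17:51831427-51833553), which covers exon 1 and was open in every library, with fold enrichments of 13.2 and 25.8 in WT and 11.7 and 14.1 in the mutant. Its percentiles were 90 and 93.9 in WT and 88.3 and 91.5 in the mutant, so the genotypes overlapped at this start site. Other starts of Satb1 in intron 1 had peaks in all 4 libraries too. The genotypes overlapped at region 13, at percentiles from 85.6 to 88.0. At region 15 both mutant percentiles (84.0 and 83.3) were above both WT percentiles (78.2 and 82.1).

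The WT-only regions of Bach2 were spread over introns 1, 2 and 5. The highest, region 32 (chr4:32341101-32341652) in intron 2, held 10 and 12 reads, and region 9 (chr4:32247666-32248131) in intron 1 held 10 and 11. The mutant-only regions were region 2, 20 kb upstream (chr4:32218452-32218810), with 11 and 9 reads, and region 70 in intron 5 (chr4:32572163-32572457), with 9 in both libraries. Region 69 (chr4:32571026-32571311), a WT-only region with 7 and 10 reads, lies in the same intron, and both are within 1 kb of a TSS of the antisense gene Bach2os.

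Tcf7 and Lef1 had few regions called in WT only. Of those of Tcf7, region 9, 22.2 kb upstream (chr11:52305216-52305626), held 8 and 9 reads. At Lef1, region 40 in intron 11 (chr3:131214846-131215140) held 11 and 14 reads, and region 1, 45.2 kb upstream (chr3:131065023-131065233), held 8 in each WT library. Neither gene had a region called in the mutant only.

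The 9 WT-only regions of Foxp1 all lay in introns, from intron 1 to intron 4 of the longest transcript. Region 24 (chr6:99395773-99396055) in intron 2 stood highest, with 12 and 11 reads at percentiles 78.2 and 71.3. Region 9 (chr6:99480390-99480768) in intron 1 showed the mutant-only pattern, with 11 and 14 reads.

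**Figure D3:**
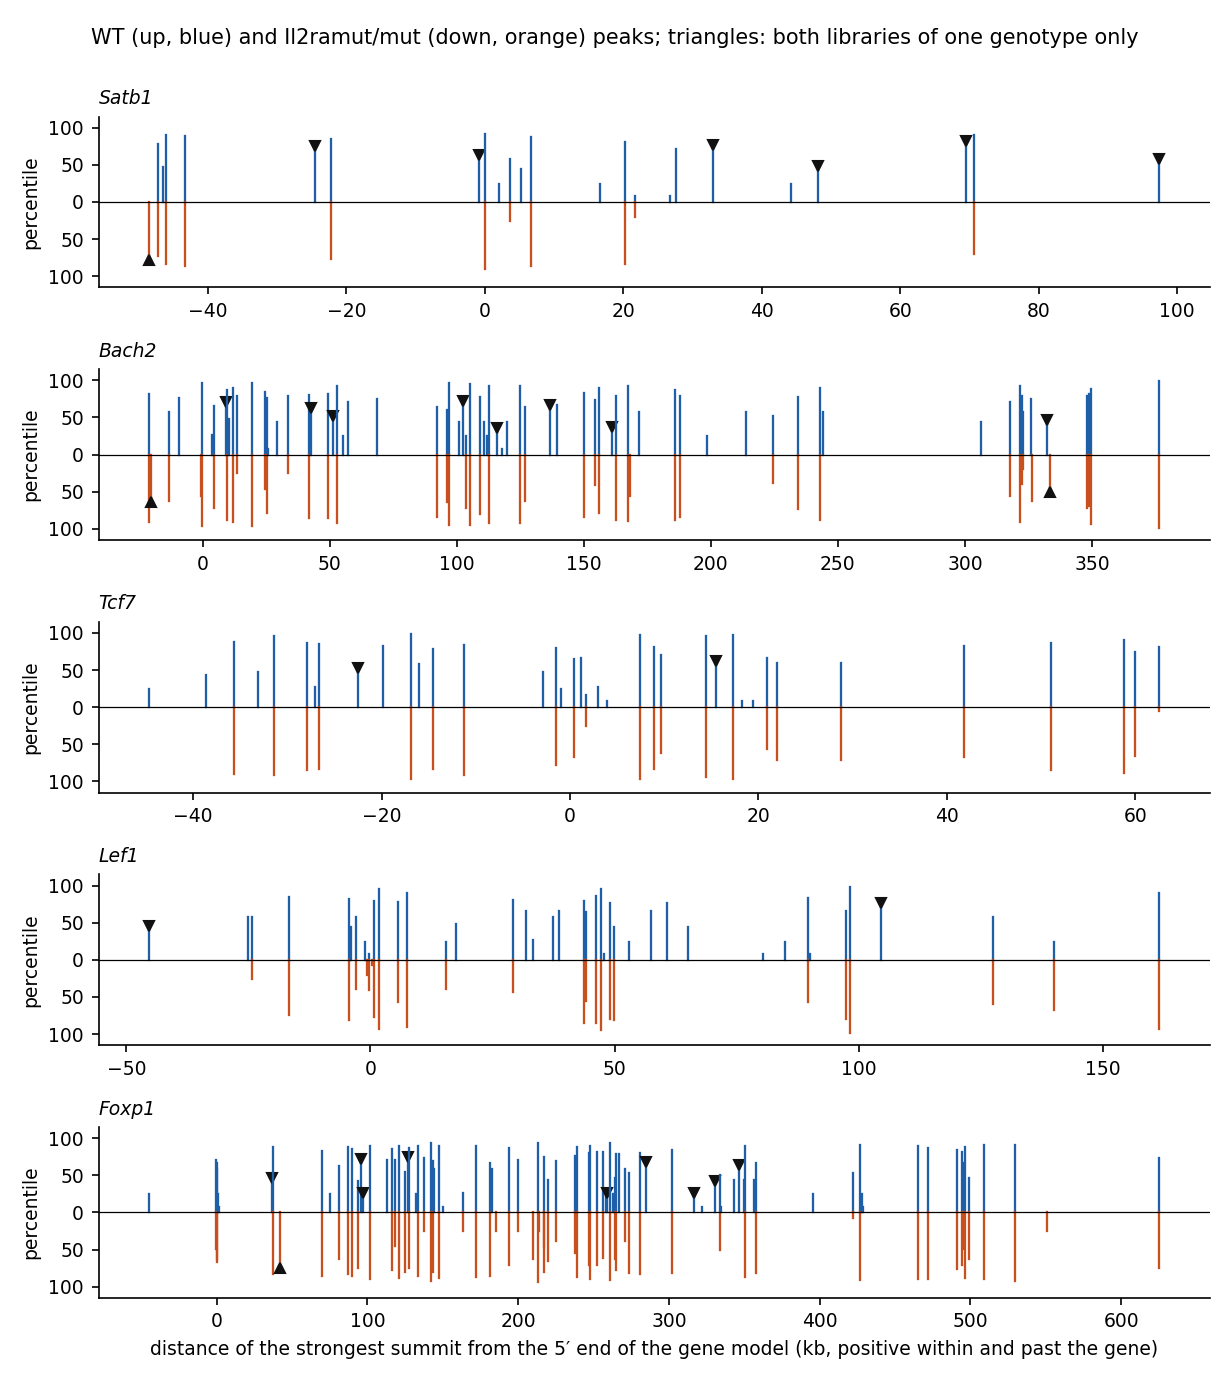
Regions at each gene by the distance of the strongest summit from the 5′ end of the gene model (x axis, kb) and by percentile of the −log10 p within the library (y axis, mean of the libraries of the genotype in which the region was called), WT upward and Il2ramut/mut downward. Triangles mark the 27 regions called in both WT libraries only and the 4 called in both mutant libraries only, and the WT-only ones lie mostly between taller peaks shared by all libraries.

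The tallest regions at these genes were open in all 4 libraries. Of the 273 regions 103 were called in every library, 6 at Satb1, 28 at Bach2, 16 each at Tcf7 and Lef1 and 37 at Foxp1, which is 37.7% against 14.1% of all regions. Their median percentile was 86.7 and 88.2 in WT and 84.8 and 87.0 in the mutant. At all regions called in every library, the medians were 81.9 and 84.5 in WT and 84.0 and 86.3 in the mutant, so that the order of the genotypes was not the same at the members.

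The strongest region at Tcf7, region 11 (chr11:52299486-52300169), lay 16.5 kb upstream of the gene, with 66 and 112 reads in WT and 81 and 59 in the mutant, at percentiles from 96.6 to 98.6. Region 28 in intron 2 (chr11:52265422-52266443) stood between 96.4 and 97.1. The main start site of Tcf7 was weak by comparison, with 8 and 16 reads in WT and 10 and 12 in the mutant at region 18 (chr11:52282216-52283840), and the genotypes overlapped there.

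At Lef1 the tallest region was region 39 in intron 11 (chr3:131208200-131209278), with 70 and 122 reads in WT and 97 and 106 in the mutant, at percentiles from 97.9 to 98.9. Region 13 near the 5′ end (chr3:131111796-131113434), within 1 kb of one of the start sites of the gene, held 39 and 63 reads in WT and 41 and 36 in the mutant, with both WT percentiles (94.2 and 95.7) above those of the mutant (92.9 and 93.5). Region 14, in intron 3, is described below among those that differed.

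At Bach2 the tallest region, region 74 (chr4:32614890-32615892), belongs to the TSS of the neighbouring gene Casp8ap2, 28.8 kb past the end of Bach2. It held 131 and 193 reads in WT and 152 and 147 in the mutant, at percentiles of at least 99.5. Within the gene, region 14 in intron 1 (chr4:32257580-32258759) stood at 96.7 and 96.5 in WT and 96.5 and 96.1 in the mutant, and the start site at region 6 (chr4:32238223-32240751) at 96.0 and 96.7 in WT and 94.6 and 96.5 in the mutant. The genotypes overlapped at both.

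Foxp1 had no region as tall as those. Its highest, region 42 in intron 2 (chr6:99309044-99310174), held 36 and 54 reads in WT and 43 and 46 in the mutant, at percentiles from 93.3 to 95.1. Regions within 1 kb of the start sites of the 5 genes numbered 23, and 9 of them were called in all 4 libraries.

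Among the regions called in every library, the ranks of the genotypes were compared. Both WT percentiles were above both mutant percentiles at 29 of 103 regions (28.2%), at a background of 12.6%, and both mutant percentiles were above at 13 (12.6%), at a background of 26.2%. With the means also at least 10 points apart, the separation was higher in WT at 10 regions (9.71%, background 5.80%) and higher in the mutant at 2 (1.94%, background 8.71%). Without WT replicate 2 these counts were 14 and 14 of 112, at backgrounds of 10.7% and 18.0%, and with only peaks of a −log10 q of at least 3 they were 7 and 8 of 97, at backgrounds of 2.75% and 15.6%. The median difference of the 103 regions, WT minus mutant, was 0.890 points at the members and −0.646 points over all 38426 such regions.

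**Figure D4:**
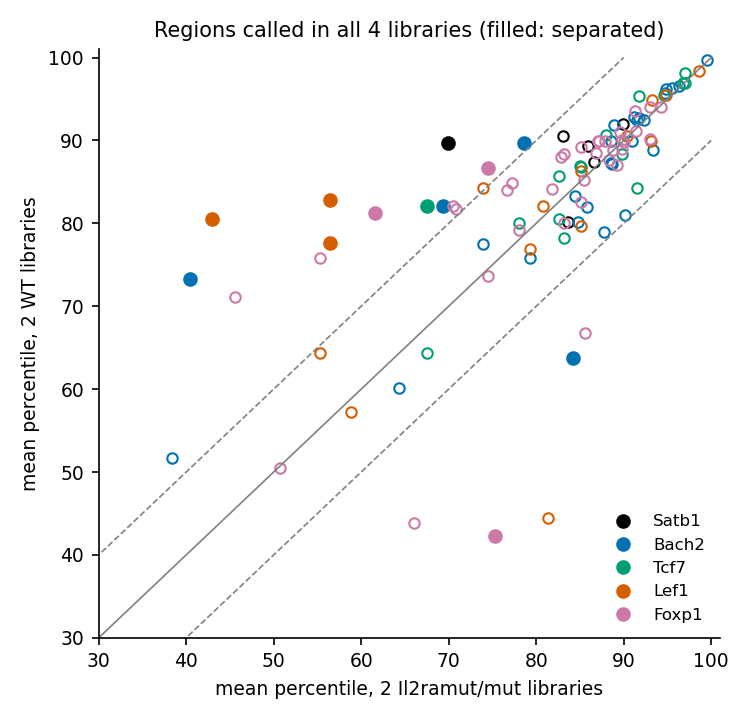
Mean percentile of the 2 Il2ramut/mut libraries (x axis) and of the 2 WT libraries (y axis) for the 103 regions called in every library, coloured by gene. Dashed lines lie 10 points from equality and filled points are the 12 regions whose percentiles do not overlap and differ by at least that much, 10 above the diagonal and 2 below it.

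Lef1 had 3 regions separated towards WT. Region 18 in intron 3 (chr3:131139480-131140184) held 11 and 22 reads in WT and 9 and 8 in the mutant, at percentiles 75.3 and 85.7 against 39.1 and 46.7, the largest of these differences (37.6 points). Region 36 at exon 9 (chr3:131199604-131200356) held 14 and 19 against 11 and 8 reads, at 81.9 and 83.8 against 66.2 and 46.7. Region 14 (chr3:131116052-131116512) stood at 75.3 and 79.9 against 66.2 and 46.7.

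At Satb1, region 23 in intron 9 (chr17:51762490-51762978) held 21 and 37 reads in WT and 10 and 15 in the mutant. Its percentiles were 88.0 and 91.3 against 55.5 and 84.5, so the mutant libraries themselves lay far apart. The region is within 1 kb of a TSS of C230085N15Rik and neighbours region 22, which had the WT-only pattern.

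Bach2 had 3 regions of this kind and 1 of the opposite. Region 47 in intron 2 (chr4:32393264-32393623) stood at 75.3 and 71.3 in WT and 55.5 and 25.3 in the mutant. Region 48 (chr4:32394746-32395283), in the same intron, was taller, with 24 and 32 reads in WT and 15 and 11 in the mutant, and region 72 past the 3′ end (chr4:32587490-32587989) held 16 and 15 against 13 and 9. Region 28 in intron 2 (chr4:32330925-32331398) ran the other way, with 8 and 15 reads in WT and 18 and 15 in the mutant.

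Foxp1 region 25 in intron 2 (chr6:99394485-99395243) held 17 and 27 reads in WT and 12 and 11 in the mutant, and region 55 in intron 3 (chr6:99265658-99266764), within 1 kb of a start site of the gene, held 13 and 17 against 13 and 8. Foxp1 region 15 in intron 2 (chr6:99428644-99429258) was higher in the mutant, at percentiles 26.6 and 58.0 in WT and 66.2 and 84.5 in the mutant. Tcf7 region 34 (chr11:52240881-52241461), which lies 10.9 kb past the end of Tcf7 in an intron of Skp1a, stood at 83.2 and 81.0 in WT and 55.5 and 79.7 in the mutant.

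**Figure D5:**
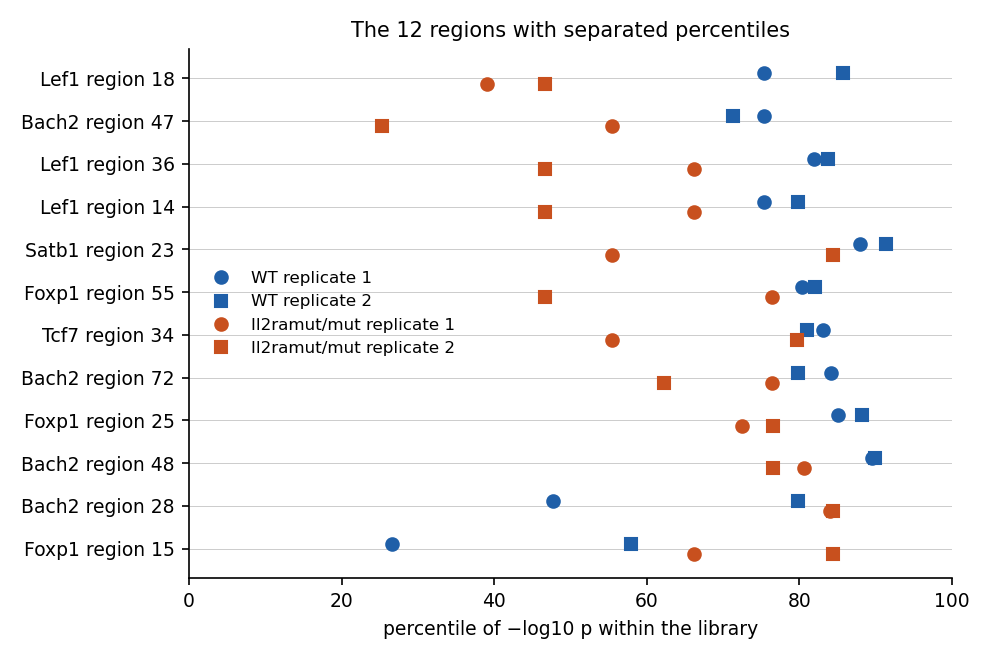
Percentile of the −log10 p in each of the 4 libraries (x axis) for the 12 separated regions (y axis), WT in blue and Il2ramut/mut in orange. The WT points lie to the right at 10 regions, and at Bach2 region 28 and Foxp1 region 15 the mutant points do.

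No region at these genes passed a test of the fold enrichment itself. On quantile-normalised log2 fold enrichment, limma called 0 of the 103 regions at an adjusted p of 0.05, at a background of 0% (0 of 38426), and the unadjusted p was under 0.05 at 13 regions higher in WT (12.6%, background 4.51%) and 2 higher in the mutant (1.94%, background 4.28%). The smallest adjusted p over all regions was 0.549. In simulated data of the same size the test recovered 0 of 100 regions changed by 1 and 0 of 100 changed by 2 on the log2 scale, so a miss says little here. Satb1 region 23 differed by 1.19 (SE 0.29), Bach2 region 48 by 1.1 (SE 0.20), Foxp1 region 25 by 0.88 (SE 0.17) and Lef1 region 18 by 0.85 (SE 0.23) on the log2 scale, WT minus mutant. The 2 regions higher in the mutant were Bach2 region 1 (chr4:32216174-32218281), 21 kb upstream, at −0.77 (SE 0.18), with 12 and 19 reads in WT and 27 in both mutant libraries, and Tcf7 region 14 (chr11:52294028-52294543), 11.3 kb upstream, at −0.69 (SE 0.23), with 13 and 27 reads in WT and 33 and 30 in the mutant.

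The irreproducible discovery rate (IDR), which keeps regions whose ranks agree between the 2 libraries of a genotype, was applied at a threshold of 0.05. At the 5 genes 105 reproducible open chromatin regions (OCRs) were found, of which 70 were common to both genotypes, 28 were unique to WT (26.7%, background 14.4%) and 7 unique to the mutant (6.67%, background 13.7%). Satb1 had 6 WT-unique and 1 mutant-unique among 11 OCRs, Lef1 6 and 2 among 16, Bach2 7 and 2 among 30, Foxp1 7 and 2 among 32, and Tcf7 2 and 0 among 16. A unique OCR is not an absent peak. Of the 28 WT-unique OCRs, 15 had a called peak in both mutant libraries, 8 in 1 of them and 5 in neither, and of the 7 mutant-unique ones 6 had a peak in both WT libraries. Without WT replicate 2, the WT-unique and mutant-unique OCRs at the 5 genes numbered 25 (23.4%, background 14.4%) and 14 (13.1%, background 15.8%). No IDR can be computed from 1 library, so the remaining WT library was represented there by its 25350 top-ranked peaks, as many as WT had reproducible OCRs.

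The words within 100 bp of the summit were counted next to their share in all regions. TCF/LEF words were found at 30.8% of the 273 regions and at 27.8% of all regions. ETS words were found at 35.2% against 27.2%, RUNX words at 20.1% against 16.7%, AP-1/BACH words at 12.1% against 7.13%, forkhead words at 4.03% against 2.78%, STAT words at 7.33% against 6.18% and GATA words at 9.52% against 10.1%. In the 103 regions called in every library, an AP-1/BACH word was present at 16 (15.5%, against 8.00% of all such regions) and a forkhead word at 8 (7.77% against 2.73%), while ETS words did not stand apart (39.8% against 39.6%). Of the 27 WT-only regions, 11 held an ETS word (40.7%, against 27.6% of all 7332 WT-only regions), 8 a RUNX word (29.6% against 17.9%) and 7 a TCF/LEF word (25.9% against 30.8%). An AP-1/BACH word was present at 2 (7.41% against 6.53%) and a forkhead word at 0 (0% against 2.81%), and at these numbers a single region moves a share by several points.

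Other genes of the resting programme were counted by the same windows. The list, chosen with earlier results of these data known, held Ccr7, a chemokine receptor gene for homing to LNs, the egress receptor gene S1pr1, Il7r, the factor genes Klf2, Foxo1, Id3, Ets1 and Myb, and the survival gene Bcl2. At these 9 genes 16 of 284 regions had the WT-only pattern (5.63%, background 2.70%) and 5 the mutant-only pattern (1.76%, background 3.56%). Of 129 regions called in every library, 7 were separated towards WT (5.43%, background 5.80%) and 3 towards the mutant (2.33%, background 8.71%). The median log2 difference in peaks of the 9 genes was 0.23 beside 0.20 over all genes tested, and 6 of the 9 lay above that median of all genes. By limma 0 passed an adjusted p of 0.05, while 3 had an unadjusted p under 0.05, against 20.4% of all genes tested. Bcl2 (0.69, SE 0.18) and Ccr7 (0.59, SE 0.17) lay in the range of the members (0.48 to 1.01). The rest of the 9 lay below it, from S1pr1 at 0.00 (SE 0.22) to Ets1 at 0.45 (SE 0.19).

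Regions at 10 genes of effector Treg cells, from Prdm1 and Irf4 to Icos, Klrg1 and Tigit, were counted likewise. Of 277 regions, 7 were WT-only (2.53%, background 2.70%) and 9 mutant-only (3.25%, background 3.56%), both near the background. Rora alone held 146 of the regions, with 5 WT-only and 5 mutant-only, and Klrg1 held 4 mutant-only ones. Of 79 regions called in every library, 2 were separated towards WT (2.53%, background 5.80%) and 11 towards the mutant (13.9%, background 8.71%). Of the 10 genes, 7 had enough peaks to be tested, and 0 of these passed by limma or had an unadjusted p under 0.05. The median difference of these 7 was −0.03, with 3 above the median of all genes tested (0.20) and 4 below 0. The tested genes ran from Tigit at −0.31 (SE 0.14) to Batf at 0.28 (SE 0.24). Klrg1, a marker of terminally differentiated effector cells, had 5 peaks in each WT library and 10 in each mutant library, too few on average to be tested.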

How the data were processed

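ATAC-seq was measured in 4 libraries, 2 of WT and 2 of Il2ramut/mut LN Treg cells. Per the labels and the methods, the authors trimmed reads (Trim Galore 0.3.7), aligned them to mm10 (BWA 0.7.13), removed duplicated and mitochondrial reads (Picard 1.92, SAMtools 0.1.19), shifted them for the transposase and called narrow peaks in each library separately (MACS2 2.1.0). The deposited fold enrichment is the ratio of the summit to the background, as computed by the authors. A single background level for each library, from 0.974 to 1.23 reads, gave whole reads at the summits of 100% of peaks. The background in these values was therefore not local. The −log10 p and −log10 q, and the score, which is 10 times the −log10 q cut to a whole number, are also the authors' values as deposited. Read totals are not given, so depth is unknown and no counting intervals are stated.

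Peaks were merged over the libraries and placed on the GENCODE M21 gene models of GRCm38, the same build, with Python 3.11.15 (numpy 2.4.6, pandas 2.3.3, scipy 1.17.1, pysam 0.24.0) and figures with matplotlib 3.10.9. Where a library had several peaks in a region, the highest −log10 p stood for it. limma 3.58.1 (R 4.3.3) tested log2 fold enrichment after quantile normalisation in regions called in all 4 libraries, and log2 of the share of peaks per gene window, with 0.5 added to the number of peaks, in genes with a mean of at least 10 peaks. IDR was ranked by −log10 p. The merging and overlap of regions, the separation of percentiles, IDR and the limma fits were tested on simulated data, and the other steps were not. In simulated gene windows (4848 genes), 57 of 100 genes changed by 1 and 99 of 100 changed by 2 on the log2 scale were recovered, and 12 of all 168 calls (7.14%) were unchanged genes.

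Named regions were those within 1 kb of a start site of their own gene, the 3 highest, those called in the libraries of one genotype only and the most separated. Bach2 region 48 and Lef1 region 14 fall outside this rule and were named because they are among the 12 separated regions. Genes with similar density were the 3 nearest by Euclidean distance over the 4 libraries. The members and gene lists were chosen with earlier results of these data known. A gene of the resting list, also near in density to a member, and a region of Tcf7 are not reported here, and the gene was left out of that list's counts. Labels do not say whether the libraries were prepared together, so p-values measure the spread between these mice and their libraries, pooled in part over all genes or regions. Alternatives were other windows, peak thresholds, overlaps, rankings and IDR settings, equal numbers of peaks, a replicate block, and leaving out each library. Fold enrichment and −log10 q order the peaks of a library as the −log10 p does, so the other rankings are not an independent check.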

Additional observations from a re-analysis of the deposited data

How the results depend on the processing

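The 273 regions at the genes and the 103 called in every library stayed within 1.5 times of these numbers under all alternatives run. Regions called in both mutant libraries only fell from 4 to 2 within gene bodies. Regions separated towards WT numbered 4 with a smallest difference of 20 points, and those separated towards the mutant 4 with 5 points and 8 with peaks of a −log10 q of at least 3. WT-unique OCRs numbered 17 at an IDR of 0.01, 53 with no IDR step and 5 when the mutant was allowed no called peak, and mutant-unique OCRs 11 and 1 in the last 2 of these. Leaving out each library in turn gave 32 to 86 regions called in WT only and 4 to 12 in the mutant only, where fewer libraries have to meet the condition, 14 to 17 and 4 to 14 separated regions, and 25 to 30 WT-unique and 6 to 14 mutant-unique OCRs. limma on regions called 0 at the genes in every alternative. The share with a TCF/LEF word was 16.5% within 50 bp of the summit and 50.2% within 200 bp, beside 14.8% and 48.1% of all regions.

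Genes called by limma on the number of peaks went from 40 to 178 with peaks of a −log10 q of at least 3, 0 with equal numbers of peaks, 16 with 25 kb either side, and 58 to 396 with each library left out. Satb1 passed with the stricter peaks (1.04, SE 0.28, adjusted p = 0.0077), although its SE was larger than in the main fit (0.19). It did not pass with equal numbers of peaks, where its difference was 0.87 (SE 0.19, adjusted p = 0.48). Replicates share only a number (correlation of their deviations 0.05 over 38426 regions). With it as a replicate block, 634 genes were called, Satb1 (adjusted p = 7.3e-07) and Tcf7 (adjusted p = 0.043) among them. Their differences were unchanged, and the SE of Tcf7 was larger (0.22 against 0.18). These lower p-values, like that with the stricter peaks, rest mainly on a spread shared over all genes. They are not stronger evidence of a difference between the mice. The unknown depth and 2 mice per genotype limit all of these.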
